A study of Drosophila melanogaster with 8 samples.

Results

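GILT proteins are thiol reductases of the lysosome, and this account follows the 3 fruit fly genes named for them, GILT1, GILT2 and GILT3, through single Drosophila melanogaster animals, mutants of 2 chromatin remodelling subunits and wild type. A probe set, the group of oligonucleotides that reads 1 transcript on the array, was taken as a member when the platform annotation gave it exactly 1 gene symbol and that symbol was one of the 3 names. Each gene had 1 such probe set, so 3 of 11982 genes and 3 of 18769 tested probe sets are described. The group was chosen by a measured value, the genotype difference of GILT3, which stood among the largest on these arrays, so every genotype difference of the 3 genes is given as a description without a test. The differences between the sexes, and the difference of the genotype effect between the sexes, were not used in that choice and are tested.

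The 8 arrays held RNA of 1 white prepupa each, collected at 0 hours after puparium formation, the onset of metamorphosis. The groups were 2 males and 2 females of the bap170;bap180 double mutant, and 2 males and 2 females of the wild type strain w1118. Bap170 and bap180, now named polybromo, encode proteins that distinguish PBAP from the other Brahma-type (SWI/SNF) chromatin remodellers, and the study asked what they do in development. The labels name neither the mutant alleles nor the strain background of the mutants, so the mutations and any background difference from w1118 cannot be told apart. The RNA came from whole animals, in which fewer cells of a type and less RNA per cell cannot be told apart either. Array medians were 4.80 to 5.13 (log2), and the probe sets of Bap170 and polybromo both had less signal in mutant animals, with intensities of 51.5 to 67.9 against 118 to 164 in wild type for Bap170 and of 15.6 to 19.3 against 34.0 to 78.6 for polybromo.

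In mammals GILT is induced by interferon gamma and acts in acidic endosomes and lysosomes, where it breaks the disulfide bonds of swallowed proteins so that proteases can cut them. Mammalian antigen presenting cells use it to prepare peptides for MHC class II molecules. Flies have neither MHC molecules nor interferon gamma, and the Drosophila genes carry the name by homology of their proteins. The arrays measure transcripts, so they bear neither on where the proteins lie nor on their activity. In the reference gene order GILT2 and GILT3 are direct neighbours on the right arm of chromosome 3, while GILT1 lies elsewhere on the same arm.

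GILT3 was present at high signal in the double mutants and at low signal in wild type. Its probe set had intensities of 651 and 668 in mutant males and of 826 and 849.6 in mutant females, against 31.05 and 44.3 in wild type males and 47.7 and 47.0 in wild type females. All 4 mutant animals lay far above all 4 wild type animals, with no overlap, and the 2 animals within each mutant group were close together. The geometric mean differed 17.7-fold, a genotype difference of 4.15 ± 0.13 (log2, mutant minus wild type, SE, n = 4 arrays each). Over all probe sets 3.36% had the 4 mutant arrays above the 4 wild type arrays without overlap, and 6 of 18769 were at least 16-fold higher in mutants. Among the 11982 genes GILT3 had the 4th highest genotype difference, and 7 genes differed by more in either direction.

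The size of the genotype difference of GILT3 was alike in the sexes. It was 17.8-fold in males (4.15 ± 0.18, log2, SE, n = 2 arrays each) and 17.7-fold in females (4.15 ± 0.18). The genotype by sex interaction, which is the difference in females minus that in males and was not used to choose the gene, was -0.01 (95% interval -0.61 to 0.59, limma adjusted p = 0.997). The interval leaves room for a difference of about 0.6 on the log2 scale between the sexes in either direction. Over all probe sets the interaction called 0% at an adjusted p under 0.05 and 1184 at an unadjusted p under 0.05.

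The wild type signal of GILT3 was dim. Array signal contains background, which compresses differences of dim probe sets. As a guide to background, 6 probe sets of Y-linked genes, which females lack, read 9.22 to 17.7 in the 4 female arrays, with a median of 11.1. These are other probe sets, and the background of the GILT3 probes themselves was not measured. With 16 intensity units added to every value before taking logs the genotype difference of GILT3 was 3.71, and under the other alternative settings, including the omission of each array in turn, it lay between 4.02 and 4.28.

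**Figure D1:**
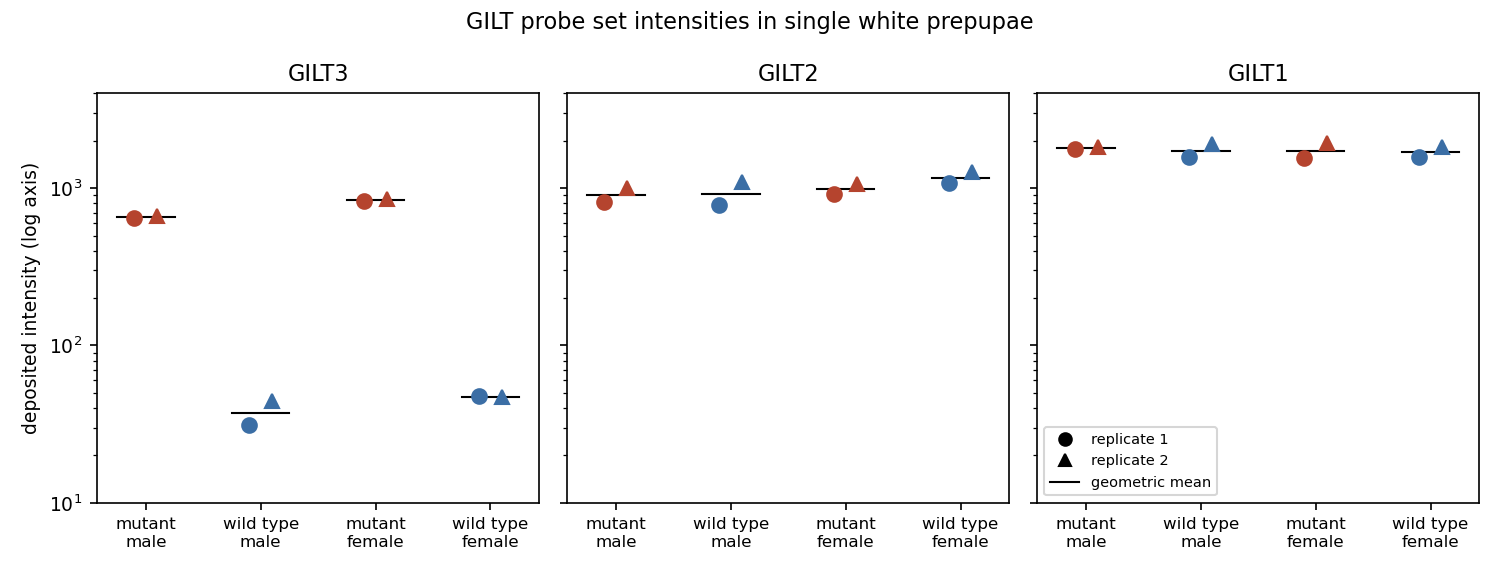
Deposited intensity (log axis) of the GILT3, GILT2 and GILT1 probe sets in each of the 8 single prepupae, with mutants in red, wild type in blue, replicate 1 as circles, replicate 2 as triangles and a bar at the geometric mean of each group. The mutant values of GILT3 lie between 651 and 849.6 and its wild type values between 31.05 and 47.7, while the genotypes overlap for GILT2 and for GILT1.

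GILT2, the immediate neighbour of GILT3, did not share this pattern. Its probe set had intensities of 820.5 and 1005 in mutant males and of 925 and 1067 in mutant females, against 778 and 1091 in wild type males and 1084 and 1260.4 in wild type females. The mutant values lay within the wild type range, and the 2 wild type males spanned much of it. The genotype difference was -0.13 ± 0.15 (log2, SE, n = 4 arrays each), with -0.02 ± 0.21 in males and -0.23 ± 0.21 in females (n = 2 each). Of the genes measured 52.2% had a larger absolute genotype difference. Between the sexes the genotype difference of GILT2 did not pass (interaction -0.21, 95% interval -0.90 to 0.48, limma adjusted p = 0.873).

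GILT1 also overlapped fully between the genotypes. Its probe set had intensities of 1776 and 1823 in mutant males and of 1553 and 1933 in mutant females, against 1575 and 1905 in wild type males and 1590 and 1841 in wild type females. The lowest and the highest of all 8 values both came from mutant females, so the spread within 1 group covered the other groups. The genotype difference was 0.04 ± 0.12 (log2, SE, n = 4 arrays each), with 0.05 ± 0.17 in males and 0.02 ± 0.17 in females (n = 2 each), and 84.4% of genes had a larger absolute difference. The interaction was -0.04 (95% interval -0.60 to 0.53, limma adjusted p = 0.979). Signal cannot be compared between the 3 probe sets, whose probes differ, so no ranking of transcript levels among the GILT genes is given.

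Males and females were compared within each genotype. For GILT3 the males were lower than the females in both genotypes, 651 and 668 against 826 and 849.6 in mutants and 31.05 and 44.3 against 47.7 and 47.0 in wild type, with no overlap in either, a pattern shown by 15.7% of all probe sets. The sex difference of GILT3 was -0.35 ± 0.13 (log2, male minus female, SE, n = 4 arrays each), with -0.35 in mutants and -0.35 in wild type, a 95% interval of -0.65 to -0.05 and a limma adjusted p of 0.153, which did not pass. An exact permutation test of sex within genotype gave a two-sided p = 0.0556, the smallest that 36 arrangements allow. The sex effect called 10.1% of all probe sets, 1518 higher and 376 lower in males.

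This sex difference depended on how the arrays were scaled. The median sex difference over all probe sets was -0.13 (log2) as deposited, so GILT3 stood lower in males than the typical probe set did. After quantile normalization the sex difference of GILT3 was -0.53 (limma adjusted p = 0.0198) and with arrays centred on their medians -0.62 (adjusted p = 0.0117), where the median probe set stood at -0.10 and -0.40. Without replicate 2 of the wild type males it was -0.48 (adjusted p = 0.0287), and without replicate 1 of the same group, the dimmest GILT3 value, it was -0.22 (adjusted p = 0.213). Adjusted p over all 18 alternatives for the sex difference of GILT3 ranged from 0.0117 to 0.323.

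For GILT2 the sexes overlapped in mutants, with 820.5 and 1005 in males against 925 and 1067 in females, and in wild type, with 778 and 1091 against 1084 and 1260.4. Its sex difference was -0.24 ± 0.15 (log2, male minus female, SE, n = 4 arrays each, 95% interval -0.58 to 0.11, limma adjusted p = 0.341). It passed only with arrays centred on their medians (-0.50, adjusted p = 0.0275), the setting under which 12522 probe sets were called for sex. For GILT1 the sex difference was 0.04 ± 0.12 (95% interval -0.25 to 0.32, limma adjusted p = 0.861), and it was -0.23 (adjusted p = 0.152) with centred arrays. Two-sided exact permutation tests of sex within genotype gave p = 0.222 for GILT2 and p = 0.833 for GILT1.

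**Figure D2:**
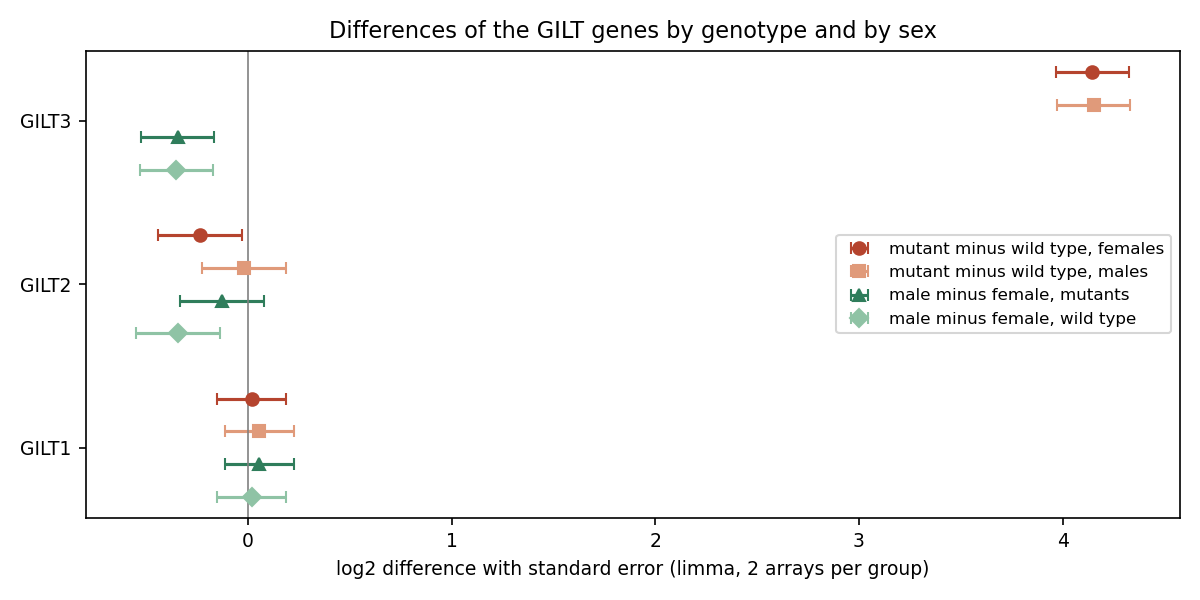
Log2 differences of GILT3, GILT2 and GILT1 with standard errors from limma (2 arrays per group), for mutant minus wild type in females and in males and for male minus female in mutants and in wild type. The genotype differences of GILT3 stand at 4.15 in both sexes, and every other difference lies between -0.35 and 0.05.

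The spread between animals of a group was ordinary for all 3 genes. The residual SD was 0.18 for GILT3, 0.23 for GILT2 and 0.17 for GILT1 (log2, 4 residual degrees of freedom), at the 49.4th, 63.7th and 43.5th percentile of all probe sets. GILT1 and GILT2 were higher in replicate 2 than in replicate 1 in all 4 groups, by 0.04 to 0.32 for GILT1 and by 0.21 to 0.49 for GILT2 (log2). GILT3 was higher in replicate 2 in 3 groups, by 0.04 in both mutant sexes and by 0.51 in wild type males, and differed by -0.02 in wild type females. Of all probe sets 6.19% were higher in replicate 2 in all 4 groups. Deviations of same-numbered arrays correlated at -0.30 to 0.41 over the 6 pairs of groups, with both signs, so the main fit did not pair arrays by replicate number. What same-numbered replicates share was not tested.

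The genes on either side of the members were read in the order of the Release 6 annotation. GILT3 is flanked by CG31145, which fell in mutants, with 168 to 191 against 226 to 334 in wild type (-0.67 ± 0.11, log2, limma adjusted p = 0.0289). Beyond it CG10184 differed by -0.31 ± 0.33 (adjusted p = 0.851). On the other side, past GILT2, eIF3d1, which encodes a subunit of a translation initiation factor, had 2293 to 2994 in mutants against 2100 to 2851 in wild type (0.16 ± 0.14, adjusted p = 0.788). CG16710, the gene after it, differed by 0.20 ± 0.17 (adjusted p = 0.789). None of these 4 neighbours was called higher in mutants.

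Among the 19 other genes within 10 measured genes of GILT3, 2 were called, against 3.66% of the 11982 genes, and their median genotype difference was 0.07. The second called gene was CG10182, named after its values were seen, which rose by 1.81 ± 0.26 (log2, limma adjusted p = 0.0159), with 331 to 548 in mutants against 86.6 to 231 in wild type. The next largest difference belonged to SPE, also named after its values were seen, which encodes the protease that activates Spätzle in the Toll pathway, at 1.00 ± 0.75 (adjusted p = 0.73). The call of CG31145 ended in 8 of 18 alternatives (highest adjusted p = 0.116), 7 of them omissions of 1 array. That of CG10182 ended without either mutant female or without wild type male replicate 2 (highest adjusted p = 0.0676).

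Around GILT1, the nearest measured gene on one side was CCHa2, a peptide hormone gene, which fell in mutants with 237 to 435 against 445 to 745 in wild type (-0.90 ± 0.18, log2, limma adjusted p = 0.0494), a call that ended in 12 of 18 alternatives (highest adjusted p = 0.165). The gene beyond it, CG9799, differed by 0.01 ± 0.19 (adjusted p = 0.999). On the other side yellow-e3 and yellow-e2, of the yellow family, differed by -0.02 ± 0.16 (adjusted p = 0.992) and -0.53 ± 0.14 (adjusted p = 0.132). Of the 20 genes within 10 measured genes of GILT1, 2 were called, against 3.66% of all genes, and these were CCHa2 and the lipase gene Lip3.

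All 3 GILT genes lie on the chromosome arm that carries polybromo, 1 of the 2 mutated genes. Of the 156 measured genes between GILT2 and polybromo 6 were called for genotype, 3 higher and 3 lower in mutants, which is 3.85%. The rest of the arm, without the GILT genes and polybromo, had 3.24% called of 2780 genes and the other chromosome arms 3.74% of 8847. In the main fit the interval between the 2 genes thus held a share near the background. The count in the interval was 9 with a variance trend and 10 with a robust variance trend. Over all 18769 probe sets 582 and 618 were called under these settings, against 524 in the main fit. With any 1 array left out the count in the interval was lower than in the main fit.

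**Figure D3:**
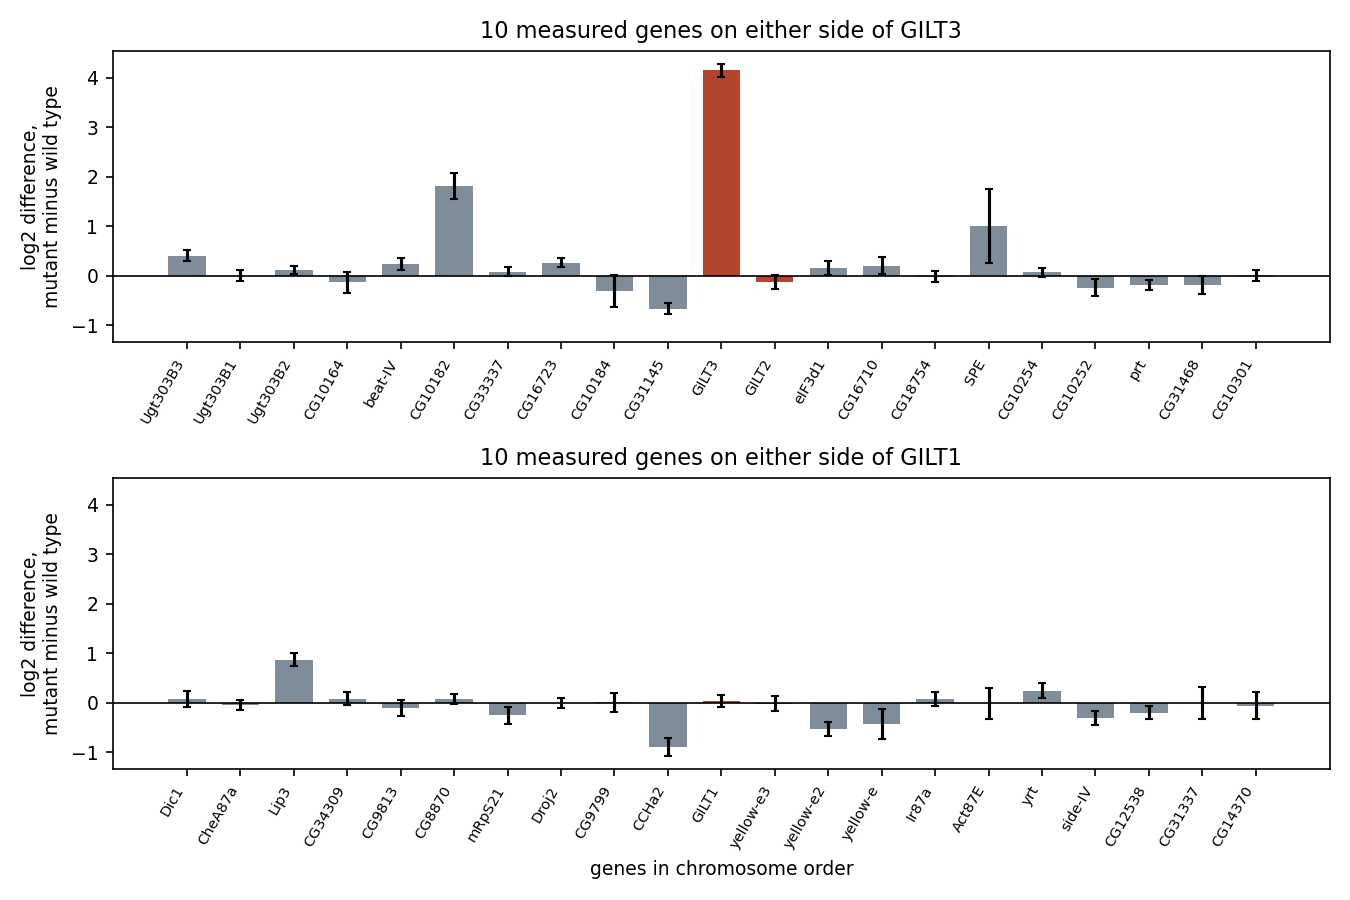
Genotype difference (log2, mutant minus wild type, bars with standard errors from limma) of the measured genes within 10 places of GILT3 (upper panel) and of GILT1 (lower panel), in chromosome order, with GILT genes in red. GILT3 stands at 4.15, its neighbours lie between -0.67 and 1.81, and the neighbours of GILT1 between -0.90 and 0.87.

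The genes whose signal followed that of each member most closely were found by Pearson correlation of log2 values over the 8 arrays, among genes with an SD of at least 0.25. With GILT3 these were Fdx2, a ferredoxin gene (r = 0.997), Tsp42Er, a tetraspanin gene (r = 0.995), CG30286 (r = 0.995), plum, which encodes a protein of the immunoglobulin superfamily (r = 0.992), and CG10353 (r = 0.989). The values fall into 2 clusters by genotype, so these coefficients mainly record that all 5 were high in mutants and low in wild type. Fdx2 had 1054 to 1168 in mutants against 308 to 381 in wild type, a genotype difference of 1.69 (log2). CG30286 had 153 to 228 in mutants against 15.1 to 19.2 in wild type, a genotype difference of 3.32. Tsp42Er differed by 1.30, plum by 2.32 and CG10353 by 2.65.

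The genes most like GILT2 and GILT1 did not follow genotype. Those of GILT2 were CG2663, the mitochondrial nuclease gene EndoG, the succinate dehydrogenase subunit gene SdhB, the mitochondrial ribosomal protein gene mRpS14 and CG14434 (r = 0.953 to 0.957), with genotype differences from -0.45 to -0.04 (log2). Their sex differences (male minus female) ran from -0.53 to -0.26. Those of GILT1 were Lrr47, CG12848, CG9849, CG6465 and CG3434 (r = 0.909 to 0.928), with genotype differences from -0.02 to 0.19. With 8 arrays and 6535 genes compared, coefficients of this size are a ranking and no measure of a link. No gene was among the 5 most like of more than 1 member.

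**Figure D4:**
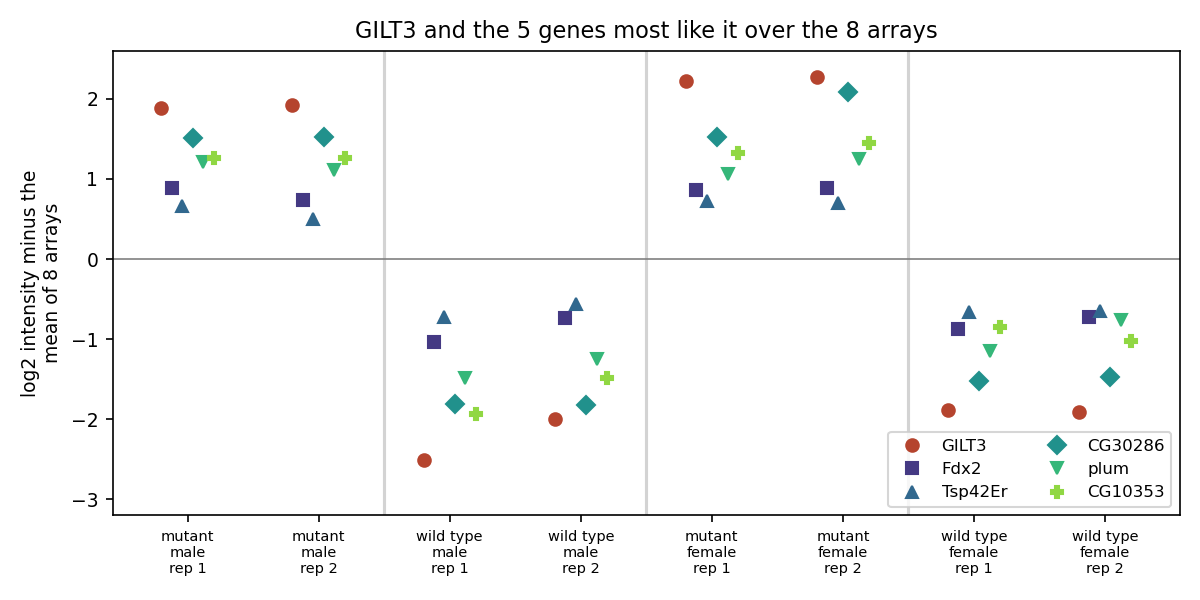
Log2 intensity minus the mean of the 8 arrays for GILT3 and the 5 genes most like it, on each of the 8 arrays in 4 groups of 2 replicates. All 6 genes lie above their mean on the 4 mutant arrays and below it on the 4 wild type arrays.

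Genes of the lysosome, where GILT proteins act, and some related genes were read from a list of 60 names, of which 52 were measured. Of these 2 were called higher and 0 lower in the main fit, or 3.85%, near the 3.66% of all genes. The list had a median genotype difference of 0.14 (log2), against -0.01 for all probe sets. Positive differences numbered 36 of the 52, against 46.3% of all probe sets. Summed intensity of the list was 78810 to 91265 in mutants against 62739 to 78622 in wild type, without overlap. Bright genes weigh most in such a sum. An unadjusted limma p under 0.05 was reached by 17 of the 52, a larger share than the 2495 of all 18769 probe sets. The gene mag, which encodes a gut lipase related to lysosomal acid lipase, rose by 2.72 ± 0.23 (limma adjusted p = 0.00209), with 454 to 1872 in mutants against 140 to 195 in wild type. Lip3, of the same lipase family, rose by 0.87 ± 0.13 (adjusted p = 0.0192). Its signal was dim and overlapped, with 15.2 to 40.1 in mutants against 12.6 to 16.3 in wild type. The difference was 1.31 in females (limma adjusted p = 0.0287) and 0.43 in males (adjusted p = 0.385). The call of Lip3 ended in 5 of 16 alternatives, without any 1 female array or wild type male replicate 2 (highest adjusted p = 0.0839).

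No lysosomal protease passed. CtsL3, a cathepsin L family gene named after its values were seen, had 2594 to 12079.7 in mutants against 358 to 1602 in wild type, without overlap (2.64 ± 0.62, log2, limma adjusted p = 0.0894). The list count rested on settings and single arrays. It was 7 with a variance trend and 5 with a robust trend or either filter on dim probe sets. Over all probe sets the calls numbered 524 in the main fit, 582 with a variance trend and 618 with a robust trend. Under the filters, at a mean log2 of at least 5 and 6, they numbered 533 and 436. The list count fell without any 1 female array and rose without either mutant male.

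Of 21 measured genes of thiol and disulfide chemistry outside the lysosome 1 rose and 2 fell, or 14.3% against 3.66% of all genes, with a median genotype difference of -0.10 (log2). The gene wbl (windbeutel), which encodes a secretory pathway protein related to protein disulfide isomerases, fell by 1.79 ± 0.13 (limma adjusted p = 0.00107), with 298 to 362 in mutants against 987 to 1329 in wild type. Qsox2, a sulfhydryl oxidase gene, fell by 0.87 ± 0.11 (adjusted p = 0.00878), with 18.6 to 19.0 in mutants against 30.2 to 42.4 in wild type. Its mutant values were dim, close to the Y-linked probe sets in females, which read up to 17.7. Ero1L, the oxidase gene of the endoplasmic reticulum that recharges disulfide isomerases, rose by 0.85 ± 0.16 (adjusted p = 0.0423), with 825 to 1170.0 in mutants against 498 to 600.4 in wild type. The call of Ero1L ended in 9 of 18 alternatives, 7 of them omissions of 1 array (any except mutant male replicate 2), with adjusted p up to 0.16. Calls in the list numbered 2 or 3 in every alternative run. At an unadjusted limma p under 0.05 stood 5 of the 21 genes, against 2495 of all 18769 probe sets.

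A list of the Imd and Toll immune pathways and their peptides held 36 names, of which 24 were measured. Among those not measured were AttA, CecA1, DptA and PGRP-LC. Positive differences numbered 19 of the 24, against 46.3% of all probe sets. At an unadjusted limma p under 0.05 stood 6 of the 24, against 2495 of all 18769 probe sets. Of the 24 genes 2 rose and 0 fell, or 8.33% against 3.66% of all genes, with a median genotype difference of 0.17 (log2). They were Fadd, the adaptor gene between Imd and the caspase Dredd, at 1.21 ± 0.20 (limma adjusted p = 0.0267), and Tab2, a partner of the kinase Tak1, at 0.86 ± 0.14 (adjusted p = 0.024). Fadd had 167 to 236 in mutants against 55.1 to 111 in wild type, and Tab2 416 to 579 against 234 to 334. The list held 1 or 0 calls without any 1 array, and the highest adjusted p were 0.109 for Fadd and 0.101 for Tab2. Without either wild type male or without mutant female replicate 1 it held 1 call, and without any other array 0.

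Some marker genes of tissues in the whole animal also differed by genotype, and their part in the GILT3 difference was not tested. Of 14 markers of hemocytes, the blood cells of the fly, 1 rose and 0 fell, or 7.14% against 3.66% of all genes. This was the phagocytosis receptor gene eater, by 1.83 ± 0.13 (limma adjusted p = 0.000894), with 91.0 to 110.1 in mutants against 21.1 to 34.3 in wild type, and the summed intensity of the 14 was 6310 to 8436 in mutants against 4828 to 6586 in wild type. Over all 18769 probe sets 2495 reached an unadjusted limma p under 0.05, and of the 14 markers 7 did. Of these eater, He (2.11, log2), PPO1 (1.96), PPO2 (1.76) and srp (0.75) were higher in mutants. Ppn (-0.41) and the hemocyte hemolectin gene Hml (-0.48) were lower. All except eater were named after their values were seen and did not pass (lowest limma adjusted p = 0.0531, srp). He had 424 to 2343 in mutants against 126 to 277 in wild type, and srp 832 to 1206 against 509 to 629. Hml had 17.9 to 41.0 in mutants against 29.4 to 45.0 in wild type. Of all 14 markers 8 had positive differences. The hemocyte list held 4 calls with a variance trend and 2 or 3 in 8 other alternatives.

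Of 12 midgut markers 5 rose and 0 fell, or 41.7% against 3.66% of all genes, with a median genotype difference of 0.85 (log2). The amylase-related gene Amyrel rose by 1.66 ± 0.18 (limma adjusted p = 0.00568), and the protease genes betaTry, Jon25Biii and etaTry rose by 2.78, 2.91 and 1.28 (adjusted p = 0.00776, 0.0101 and 0.0195). The fifth was the protease gene epsilonTry (2.15, adjusted p = 0.0225), and without either mutant female the midgut list held 3 calls. Of the other 7 markers 4 had positive and 3 negative differences. Among the negative ones was the protease gene Jon65Aiv, named after its values were seen, with 8487 to 10651 in mutants against 11784 to 12595 in wild type (-0.33 ± 0.11, adjusted p = 0.227). Summed midgut intensity was 21492 to 33339 in mutants against 20585.0 to 26576 in wild type, so the sums overlapped. Npc2e and LManV stand on both the midgut and the lysosome list. At an unadjusted limma p under 0.05 stood 7 of the 12 midgut markers, against 2495 of all 18769 probe sets.

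Of 7 fat body markers 0 were called by limma, and 1 had an unadjusted p under 0.05, against 2495 of all 18769 probe sets. Summed fat body intensity was 54861 to 66441 in mutants against 59473 to 67490.0 in wild type. The lipid droplet gene Lsd-1 differed by -1.18 ± 0.37 (log2, adjusted p = 0.205) and the lipase gene bmm by -0.32 ± 0.14 (adjusted p = 0.395). Of 7 salivary gland markers Sgs1, a glue protein gene, fell by 0.65 ± 0.08 (limma adjusted p = 0.0103) and 0 rose, or 14.3% against 3.66% of all genes. Its probe set was dim, with 21.8 to 26.9 in mutants against 32.8 to 43.8 in wild type. All 7 markers had negative genotype differences, with a median of -0.65. An unadjusted limma p under 0.05 was reached by 5 of them, a larger share than the 2495 of all 18769 probe sets. The largest was that of the glue protein gene Sgs4, named after its values were seen, at -4.37 ± 1.06 (adjusted p = 0.0997), with 15.2 to 780.2 in mutants against 654 to 1534 in wild type. Summed salivary gland intensity was 15867 to 19287 in mutants against 20820 to 32880 in wild type, without overlap. The salivary gland list held 0 calls without wild type female replicate 2 and 2 or 3 in 7 other alternatives, and the fat body list 1 without mutant male replicate 1.

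**Figure D5:**
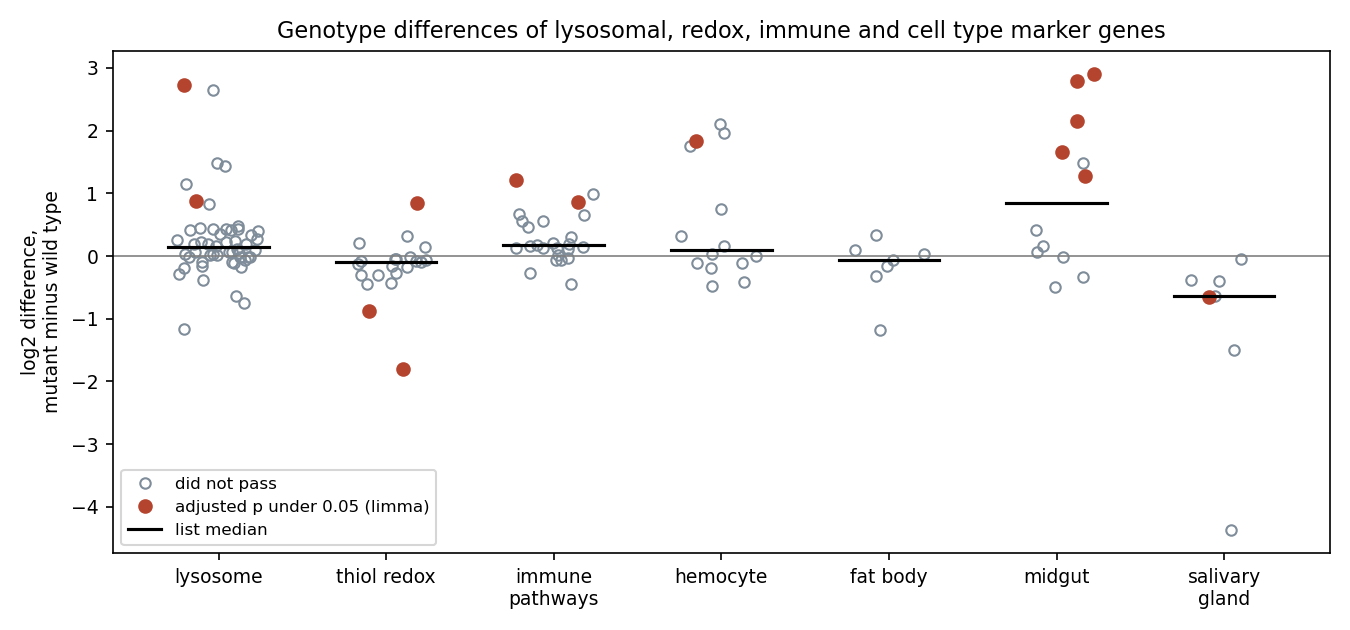
Genotype difference (log2, mutant minus wild type) of each measured gene of 7 lists, with filled red points at a limma adjusted p under 0.05, open grey points otherwise and a bar at the list median. Calls number 2 among lysosomal, 3 among thiol redox, 2 among immune pathway, 1 among hemocyte, 0 among fat body, 5 among midgut and 1 among salivary gland genes.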

How the data were processed

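The authors deposited 1 table of intensities on a linear scale, made by RMA per the submitters' processing notes, which corrects background, normalizes between arrays and summarises each probe set. Its version is not given in the sources used here, and array medians still differ between the sexes. Groups came from the sample titles. All values were converted to log2, without 183 control probe sets. The brightest probe set on average stood for a gene. Gene order and symbols came from a RefSeq table (Release 6) and the platform annotation. Coordinates are left out, since the build behind the table is not given.

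limma 3.58.1 (R 4.3.3) fitted 4 group means by lmFit and eBayes, with Benjamini-Hochberg adjustment over 18769 probe sets and a threshold of 0.05. The genotype effect averages both within-sex differences. The script was tested on simulated data. Precision is limited by having 8 arrays. The members and lists were chosen with earlier results of these data known. Genes named are the members, Bap170 and polybromo, up to 4 called genes per list (otherwise the 2 with the lowest p), the 5 genes most like each member and the 2 nearest measured genes on each side. Alternatives covered scaling, dim filters, the variance prior, 1 probe set per gene, a replicate block, array weights, an added constant, single-sex fits and the omission of each array. The interval up to polybromo was examined after seeing the data.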

Additional observations from a re-analysis of the deposited data

How the results depend on the processing

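The genotype difference of GILT3 lay between 4.02 and 4.28 (log2) with 1 array left out and was 3.71 with 16 added to the intensities. That addition shrinks folds of dim probe sets by construction. The sex difference of GILT3 was -0.53 after quantile normalization, -0.62 with centred arrays and -0.48 to -0.22 with 1 array left out. The sex difference of GILT2 was -0.50 with centred arrays. The sex difference of GILT1 changed sign with centred arrays (-0.230) and on omission of replicate 1 of the wild type females (-0.0164), replicate 2 of the wild type males (-0.0322) or replicate 1 of the mutant females (-0.0425), and lay between -0.0425 and 0.12 over the 8 omissions. Interactions near 0 changed sign without passing. For GILT1 these were 0.0477 (quantile), 0.0692, 0.101 and 0.121 (on omission of replicate 2 of the wild type females, replicate 1 of the wild type males and replicate 1 of the mutant females; range over omissions -0.19 to 0.12). For GILT2 it was 0.0297 (without wild type male replicate 1; range over omissions -0.46 to 0.0297). For GILT3 these were 0.0877 (16 added), 0.00390, 0.248, 0.0130 and 0.0119 (on omission of replicate 1 of the wild type females, the wild type males and the mutant females, and replicate 2 of the mutant males; range over omissions -0.26 to 0.25), and its lowest value was -0.29 (quantile normalization).

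Calls on the lysosome list numbered 5 with either dim filter or a robust trend, 7 with a variance trend and 1 to 5 with 1 array left out. Immune pathway calls numbered 0 to 1 with 1 array left out. Between GILT2 and polybromo there were 10 with a robust trend and 1 to 4 with 1 array left out. Genotype calls over all probe sets were 524, and 247 to 488 with 1 array left out. Sex calls were 1894 (80.1% higher in males), 3476 after quantile normalization (45.6% higher), 12522 with centred arrays (11.5% higher), and 1179 and 426 under the dim filters. The cause of these changes was not tested, beyond fewer probe sets or arrays. Replicate numbers were not used to pair the arrays in the main fit. With the replicate number as a block the sex differences had limma adjusted p = 0.827 for GILT1, 0.215 for GILT2 and 0.16 for GILT3, and 447 probe sets were called for genotype. The block ended the calls of Ero1L (adjusted p = 0.0694) and CCHa2 (0.0772). Each member has 1 probe set, so no other probe set could be tried. Dim signal compresses folds, and GILT3 was dim in wild type.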
